A study of Homo sapiens with 12 samples.

Results

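ANKRD1 and 9 other genes of YAP-TEAD signalling were followed through a short pulse of miR-10 in human neural progenitors. The set held the target genes ANKRD1, CTGF, CYR61, AMOTL2, LATS2, AXL and AJUBA, the DNA-binding factor TEAD1, and the co-activators YAP1 and WWTR1 (TAZ), which makes 10 of the 25718 genes in the deposited counts. ANKRD1 was picked because its drop over both miR-10 vectors was among the largest of all genes, and the other 9 were added for their known place in the pathway. All 10 were chosen with earlier results of these data known, so the other 9 are no independent check on ANKRD1. Where a gene had several transcripts, the transcript with the highest mean count was used. Of the 10 genes, 7 had a mean above 10 counts over the 12 samples and were tested, among 11451 tested genes in all.

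The experiment asked which transcripts respond directly when miR-10a or miR-10b is switched on in ventral midbrain cultures. All 12 samples came from H9, an established line of human embryonic stem cells that had been grown on mouse fibroblast feeders, and each carried a lentiviral vector (multiplicity of infection of 50) for GFP together with miR-10a or miR-10b under control of doxycycline. All groups went through 14 days of neural induction, patterned with SHH at 200 ng/ml and the GSK3 inhibitor CT99021, and were dissociated and replated at day 11. The 4 groups of 3 replicates were miR-10a and miR-10b cells given doxycycline from day 11 to day 14 ("dox") and the same cells without it ("control"). Cells with the GFP-only vector are not among these samples, so an effect of doxycycline or GFP itself cannot be told apart from that of the miRNA. The labels do not say whether replicates came from separate cultures, and the p-values measure the spread between these samples. Total counts ranged from 10545487 to 14165426 per sample, and within each vector every control sample had a higher total than every dox sample. The count of the induced precursor was in keeping with each label: MIR10A stood at 711 to 731 CPM (each count scaled to the total of its sample) in miR-10a dox samples, and MIR10B at 2541 to 2662 CPM in miR-10b dox samples, against at most 1.37 and 4.45 CPM in their controls. Replicates differed from one another by more than sampling noise, with a chi-square per degree of freedom of 1.22 to 1.93, and of 3.17 and 4.11 for the pairs that include miR-10b dox replicate 2.

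YAP and TAZ are co-activators that enter the nucleus when the Hippo kinases MST and LATS are inactive, and that bind DNA through the TEAD factors. Cell spreading, low density and a contractile actin skeleton favour their entry, whereas LATS phosphorylation holds them in the cytoplasm. ANKRD1, CTGF and CYR61 are the most widely used readouts of this pair. Several other targets, among them LATS2, AMOTL2 and AJUBA, are themselves regulators of the pathway.

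The sequences below show where the seed of the induced miRNA could pair with the 3′UTRs of these genes. Only matches to the seed in 3′UTRs were searched, so they do not settle which genes respond directly. The mature strand of miR-10a is given as RefSeq lists it, with seed bases 2 to 8 in capitals, and miR-10b shares this seed. The 3′UTR matches are on GRCh37, the same assembly as hg19, read along the transcript strand with the paired letters in capitals.
hsa-miR-10a-5p: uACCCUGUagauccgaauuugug
ANKRD1 (chr10:92672465-92672494, minus): ttttgagaaagcACAGGGTtataggtgttt
TEAD1, first match (chr11:12958861-12958890, plus): aaacctcaccacACAGGGTggtgccctggc
TEAD1, second match (chr11:12961136-12961165, plus): tctgctgacctcACAGGGTcagctgggccc
WWC2 (chr4:184239268-184239297, plus): gaatttattcgcACAGGGTAaaaagaatgt

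The ANKRD1 3′UTR held 1 match to the full seed (ACAGGGT, called 7mer-m8) and that of TEAD1 held 2. The 3′UTR of WWC2, a Hippo regulator described further on, held the longest form, ACAGGGTA, called 8mer. Among the other listed genes that were tested, MAP4K4 (log2 difference 0.07 with miR-10a and 0.10 with miR-10b, adjusted p = 0.80 and 0.41, edgeR) and CCDC80 (-0.03 and -0.01, adjusted p = 0.97 for each) also held an 8mer. The 7mer-m8 was the best match of NUAK2 and CNN1, both described further on. DOCK5, STK4, AMOTL1, WTIP, TAGLN, PDGFRA and THY1 had it too and did not pass with either vector (edgeR adjusted p of 0.27 or more). With miR-10b their log2 differences were -0.13, -0.05, 0.08, 0.06, -0.52, -0.11 and 0.10, in that order. A 3′UTR was annotated for 9830 tested genes, of which 14.6% had a 7mer-m8 and 2.72% an 8mer as their best match. CTGF and CYR61 had no match, and LATS2, AJUBA and YAP1 had only the shorter CAGGGT, the best match of 21.3% of those genes. AMOTL2 and WWTR1 had none, and AXL held 1 match to the full seed, in a stretch found 1266 times on its chromosome and not printed. The longest annotated 3′UTR of each gene was searched, which need not be that of the transcript counted. For CCDC80 it had 8620 bases, whereas the whole counted transcript had 4712, so the counted RNA may lack the 8mer. A match is a string in the annotation and was not tested as a binding site.

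A second set of sequences shows the promoters, where ANKRD1 and CTGF both held the TEAD motif. Such motifs are part of what makes a gene a known target, so that they are no independent support. The TEAD motif GGAATG was searched on both strands from 250 bases before to 50 bases after each RefSeq start (promoter table on GRCh38.p14). ANKRD1 held 2 matches and CTGF 3, all on the strand of the gene, of which the latter pair of CTGF lie so close that the printed windows overlap. Coordinates below are on GRCh37, where each window was found once on its chromosome, and the motif is in capitals.
ANKRD1, first base at -220 (chr10:92681047-92681076, minus): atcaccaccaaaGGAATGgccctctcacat
ANKRD1, first base at -128 (chr10:92680955-92680984, minus): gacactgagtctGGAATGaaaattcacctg
CTGF, first base at -169 (chr6:132272664-132272693, minus): ttttcagacggaGGAATGctgagtgtcaag
CTGF, first base at -104 (chr6:132272599-132272628, minus): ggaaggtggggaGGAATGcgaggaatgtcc
CTGF, first base at -95 (chr6:132272590-132272619, minus): ggaggaatgcgaGGAATGtccctgtttgtg

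Of 35116 promoters of the same length, 14% held the motif at least once, 1.37% at least 2 times and 0.128% at least 3 times. LATS2 and YAP1 held it once each, and AMOTL2, AXL, AJUBA and WWTR1 did not hold it in this window. Of the 10 genes 8 matched the promoter table, that is all but CYR61 and TEAD1. Among the other listed genes that were tested, NUAK2 and WWC2, described further on, held 2 motifs each, WTIP 3, and PTPN14 and VCL 1 each. WTIP, PTPN14 and VCL did not pass with either vector (0.06, 0.10 and 0.19 with miR-10b, edgeR adjusted p = 0.58, 0.16 and 0.71).

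ANKRD1 encodes an ankyrin repeat protein of muscle sarcomeres and the nucleus, known as a mechanical stress gene. It lies on chromosome 10 (GRCh37, 92671853 to 92680844, minus strand) and has 1 listed transcript, NM_014391, of 1974 bases. With the miR-10b vector its level was 65.85, 64.37 and 72.65 CPM in the controls and 16.74, 19.91 and 19.37 CPM after doxycycline. Every dox sample was thus far below every control sample. With the miR-10a vector the controls had 38.01, 42.43 and 33.49 CPM and the dox samples 27.8, 26.74 and 23.42 CPM, again without overlap but with a narrower gap.

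The log2 difference of ANKRD1 (dox minus control) was -1.86 (SE 0.079) with miR-10b, a change of -72.4%, and -0.55 (SE 0.081) with miR-10a, a change of -31.7%. Averaged over both vectors it was -1.20 (SE 0.057). Both the miR-10b value and the average ranked lowest of the 11451 tested genes, while the miR-10a value ranked 128 from the lowest. These values are the ones ANKRD1 was chosen by and are given as a description with no test.

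The order of ANKRD1 levels was therefore miR-10b control (67.6 ± 4.41 CPM, SD, n = 3), miR-10a control (38.0 ± 4.47), miR-10a dox (26.0 ± 2.28) and miR-10b dox (18.7 ± 1.69), and no neighbouring groups in that order overlapped. The vector with the higher level in cultures without doxycycline had the lower level in cultures given it. In bulk samples such as these, fewer cells expressing a gene and less RNA per cell cannot be told apart.

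**Figure D1:**
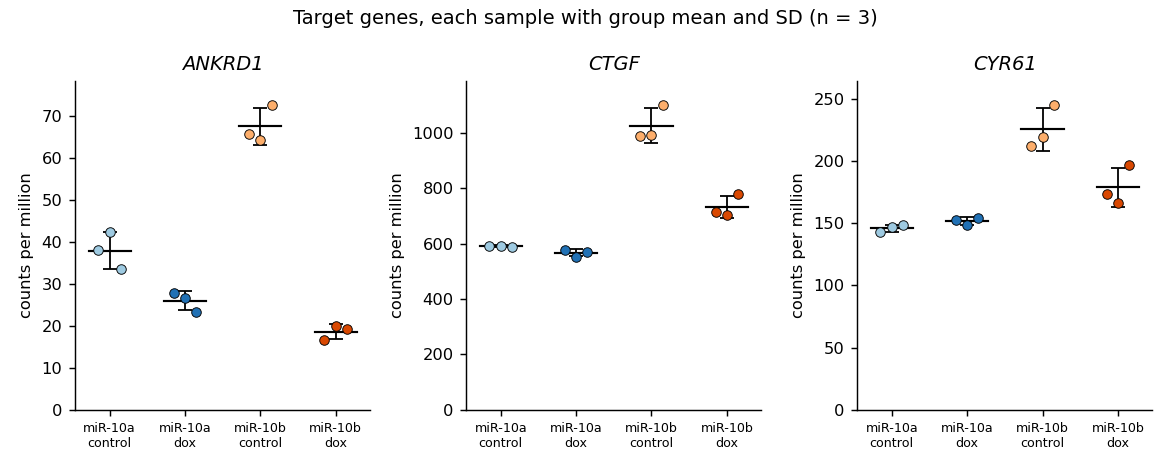
Levels of ANKRD1, CTGF and CYR61 in CPM (vertical axes, from 0) in each of the 12 samples, by group; points are samples, horizontal lines group means and bars the SD of 3 replicates. ANKRD1 was lower in every dox sample of both vectors, whereas CTGF and CYR61 were clearly lower after doxycycline with miR-10b and close to their controls with miR-10a.

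CTGF and CYR61 encode secreted matricellular proteins that bind integrins and growth factors. CTGF (chromosome 6, 132269316 to 132272512, minus strand; NM_001901) had 987.9, 992.2 and 1100 CPM in the miR-10b controls and 714.5, 704.3 and 778.7 CPM in the miR-10b dox samples. In the miR-10a samples it had 593.4, 592.5 and 587.5 CPM without doxycycline and 576.5, 552.3 and 571.5 CPM with it. The groups of each vector did not overlap, but the gap with miR-10a was small beside the one with miR-10b. CTGF fell with miR-10b by 28.7% (log2 difference -0.49, SE 0.037, adjusted p = 1.9e-12 by the quasi-likelihood test of edgeR, Benjamini-Hochberg adjusted across all tested genes). With miR-10a the log2 difference was -0.06 (SE 0.038, adjusted p = 0.58, 95% interval -0.14 to 0.01).

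CYR61 (chromosome 1, 86046444 to 86050272, plus strand; NM_001554) had 212.2, 219.8 and 244.9 CPM in the miR-10b controls and 173.6, 166.2 and 196.8 CPM after induction. The corresponding miR-10a values were 143.1, 146.8 and 148.4 CPM and 152.7, 148.7 and 154.5 CPM. With miR-10b all dox samples were below all controls, and with miR-10a all were above, by a small margin. The fall of CYR61 with miR-10b was by 20.7% (log2 difference -0.34, SE 0.047, edgeR adjusted p = 2.4e-06). With miR-10a the log2 difference was 0.06 (SE 0.050, adjusted p = 0.76, 95% interval -0.04 to 0.15).

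Among the 9 genes other than ANKRD1, 6 were tested and 2, CTGF and CYR61, passed the threshold of an adjusted p under 0.05 with miR-10b, both lower. Over all tested genes 15.3% passed in that comparison, 7.15% as lower and 8.18% as higher. With miR-10a 0 of the 6 passed in edgeR, where 1.21% of all tested genes did (0.742% as lower and 0.472% as higher), and none of the 6 had an unadjusted p under 0.05, the lowest being 0.076 for LATS2. DESeq2 also called 0 of them. The median log2 difference of the 6 was -0.14 with miR-10b and 0.03 with miR-10a, beside 0.02 and 0.01 over all tested genes. Averaged over both vectors, CTGF (log2 difference -0.27, adjusted p = 8.1e-10) and CYR61 (-0.14, adjusted p = 0.0046) passed, against 13.9% of all tested genes (6.22% as lower and 7.67% as higher), although the value of CYR61 with miR-10a alone was above 0. Samples without overlap were also common among all tested genes, as 12.3% had every miR-10b dox sample below every control and 16.3% had every one above. With miR-10a these shares were 7.75% and 10.5%.

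The doxycycline effects of the vectors were then compared directly with an interaction term. The effect with miR-10b was lower than that with miR-10a by 0.43 on the log2 scale for CTGF (log2 difference of effects -0.43, SE 0.052, edgeR adjusted p = 1.6e-06) and by 0.39 for CYR61 (-0.39, SE 0.069, adjusted p = 0.00066). These were 2 of the 6 tested genes other than ANKRD1, where 1.96% of all tested genes passed, 1.38% as lower and 0.576% as higher. Of 7 tested mesenchymal markers, 2 were lower in the same term, COL1A1 (-0.65, SE 0.100, adjusted p = 9.7e-05) and COL3A1 (-0.38, SE 0.073, adjusted p = 0.0018), and their part in the values of CTGF and CYR61 was not tested. For ANKRD1 the same difference was -1.31 (SE 0.116), which ranked 9 from the lowest of all tested genes, again as a description. The amount of induced miRNA, its identity and the vector cannot be told apart here.

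**Figure D2:**
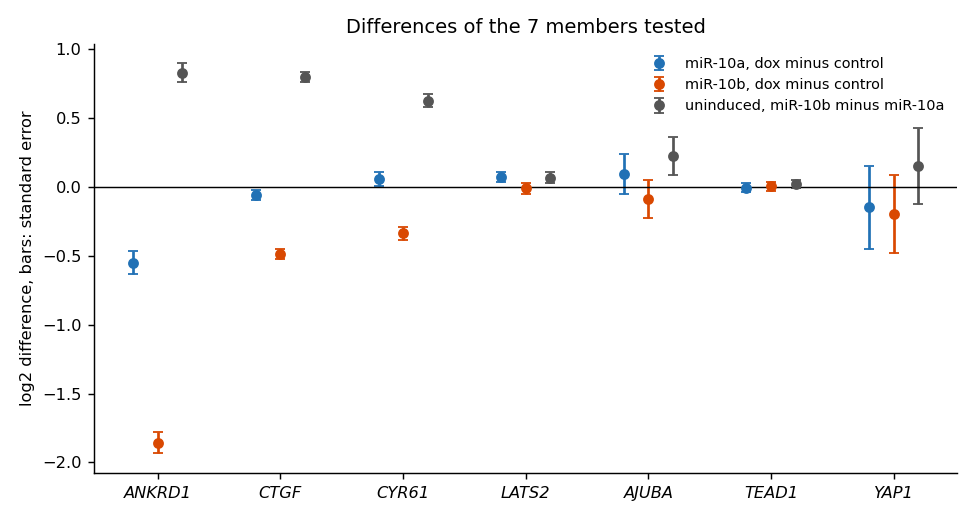
Log2 differences of the 7 tested genes (vertical axis), with bars for the standard error, for doxycycline minus control with each vector and for uninduced miR-10b minus uninduced miR-10a samples. ANKRD1, CTGF and CYR61 lie below 0 with miR-10b (-1.86, -0.49 and -0.34) and above 0 in the uninduced comparison (0.83, 0.80 and 0.63), while TEAD1 and LATS2 lie near 0 in all 3 comparisons.

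The uninduced cells of the 2 vectors also differed. For ANKRD1 the log2 difference (miR-10b control minus miR-10a control) was 0.83 (SE 0.068), a ratio of 1.77, given as a description because these control samples entered the drop it was chosen by. CTGF was 1.74-fold higher in miR-10b controls than in miR-10a controls (log2 difference 0.80, SE 0.037, edgeR adjusted p = 9e-19) and CYR61 1.54-fold higher (0.63, SE 0.048, adjusted p = 8.3e-13), and no miR-10b control sample overlapped the miR-10a controls for any of these 3. CTGF and CYR61 were 2 of the 6 tested genes other than ANKRD1, where 14.1% of all tested genes passed, 7.41% as higher and 6.72% as lower. Without regard to the test, 14.2% of all tested genes had every miR-10b control above every miR-10a control and 15.9% had every one below. The median of the 6 was 0.19 beside -0.01 over all tested genes. Vector and culture cannot be told apart in this comparison, and it shares the uninduced miR-10b samples with the doxycycline comparison above, so a high value in them raises the one and lowers the other.

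After induction the 3 genes did not stand in the same order. CTGF was at 732.5 ± 40.3 CPM in miR-10b dox samples and 566.8 ± 12.8 CPM in miR-10a dox samples, and CYR61 at 178.9 ± 16 and 151.9 ± 2.96 CPM (SD, n = 3), so both stayed higher with miR-10b. ANKRD1 alone was lower in the miR-10b dox samples than in the miR-10a dox samples. This order of the dox samples was not tested.

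Of the factors themselves and the feedback genes, none passed the threshold in any comparison by edgeR, and none had an unadjusted p under 0.05. TEAD1, the DNA-binding partner with 2 seed matches in its 3′UTR (chromosome 11, 12695968 to 12966284, plus strand), ranged from 600.0 to 648.1 CPM over the 12 samples, with all 4 groups overlapping. Its log2 difference was 0.004 with miR-10b (SE 0.031, adjusted p = 0.96, 95% interval -0.06 to 0.07) and -0.006 with miR-10a (SE 0.032, adjusted p = 0.98). The intervals exclude a change of TEAD1 as large as those of CTGF and CYR61 with miR-10b.

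LATS2, the kinase that phosphorylates YAP and is also one of its targets (chromosome 13, 21547175 to 21635725, minus strand), ranged from 119.9 to 131.1 CPM. Its 3 miR-10a controls (125.7, 121.8 and 119.9 CPM) were all just below the 3 miR-10a dox samples (129, 127.8 and 129.3 CPM), and the miR-10b groups overlapped. The log2 difference of LATS2 was 0.07 with miR-10a (adjusted p = 0.52) and -0.01 with miR-10b (adjusted p = 0.90, 95% interval -0.09 to 0.07).

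AJUBA, a LIM protein that restrains LATS (chromosome 14, 23440386 to 23451760, minus strand), was measured on 1 of 3 transcripts at 5.78 to 9.36 CPM. Its groups overlapped with both vectors, and the log2 differences were 0.09 (SE 0.144, adjusted p = 0.88) with miR-10a and -0.09 (SE 0.137, adjusted p = 0.75) with miR-10b. The miR-10a value turned to -0.15 without miR-10a dox replicate 2, which at 9.36 CPM was the highest of all samples. YAP1 was measured on 1 of its 9 transcripts by only 11 to 35 counts (0.91 to 2.63 CPM). Its log2 differences were -0.15 (SE 0.299, edgeR adjusted p = 0.92) with miR-10a and -0.20 (SE 0.283, adjusted p = 0.71) with miR-10b. The 95% intervals were -0.74 to 0.44 and -0.75 to 0.36, so that a change of YAP1 as large as that of CTGF was not detectable at these counts. Without miR-10a dox replicate 1 the miR-10a value was -0.57, and without miR-10b control replicate 3 the miR-10b value was 0.11.

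**Figure D3:**
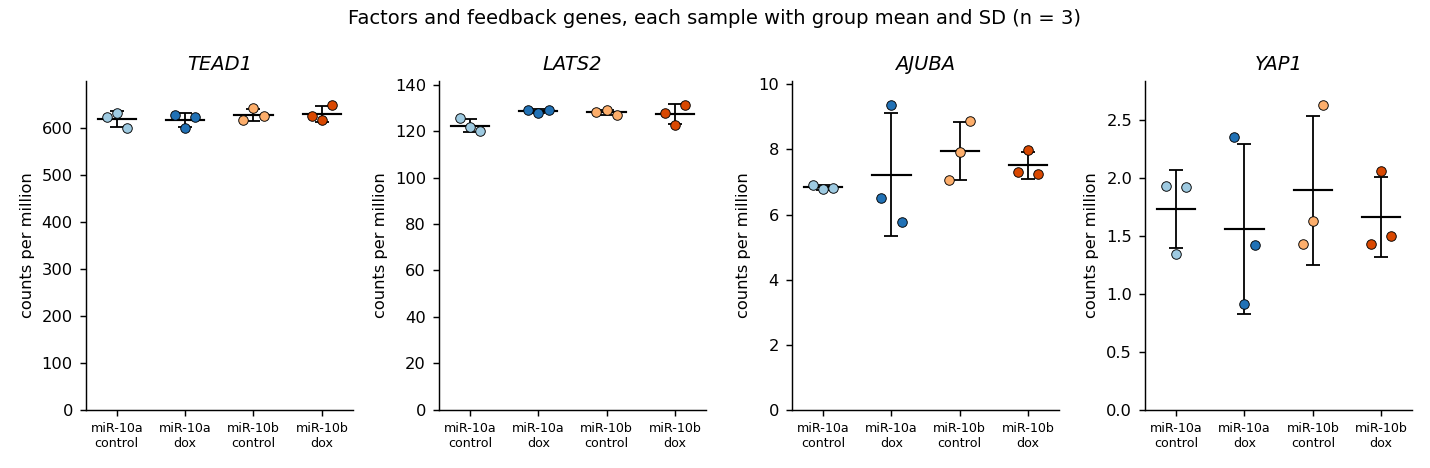
Levels of TEAD1, LATS2, AJUBA and YAP1 in CPM (vertical axes, from 0) in each of the 12 samples, by group; points are samples, horizontal lines group means and bars the SD of 3 replicates. TEAD1 (600.0 to 648.1) and LATS2 (119.9 to 131.1) vary little, while AJUBA and YAP1 rest on few counts and scatter within their groups.

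AMOTL2, an angiomotin family scaffold, AXL, a receptor tyrosine kinase, and WWTR1, which encodes TAZ, were not tested. Each has 3 listed transcripts, and the one with most reads had at most 1 count for AMOTL2, at most 4 for AXL and 1 to 6 for WWTR1 in any sample. These low counts do not mean low expression. In genes with several transcripts 64.3% of transcripts had no count in any sample, against 15.8% in genes with 1 transcript, and the other 2 transcripts of AXL and AMOTL2 were at 0 throughout. Among the 5 genes with 1 transcript, whose levels can be compared per length, CTGF had the highest mean level over all samples (311 CPM per kb), followed by CYR61 (76.6), TEAD1 (66.2), LATS2 (22.9) and ANKRD1 (19.0). CTGF led in every group, but ANKRD1 (34.3) was above LATS2 (23.1) in miR-10b controls, and TEAD1 (65.7) above CYR61 (63.7) in miR-10a controls.

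Other known YAP-TEAD targets were split between directions. Of 16 such genes listed, 8 were tested. With miR-10b, 1 was higher and 2 were lower past the threshold (background 8.18% and 7.15% of all tested genes), and with miR-10a 0 passed in edgeR or DESeq2 and 0 had an unadjusted p under 0.05. The median log2 difference of the 8 was 0.03 with miR-10b and -0.01 with miR-10a, close to the 0.02 and 0.01 over all tested genes.

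NUAK2, a kinase that promotes actomyosin contraction, had a 7mer-m8 match in its 3′UTR and 2 TEAD motifs in its promoter. It stood at 166.8, 169.7 and 167.6 CPM in miR-10b controls and 144.1, 141.7 and 151.9 CPM in dox samples, with a log2 difference of -0.20 (SE 0.038, adjusted p = 0.00019), and with miR-10a at -0.07 (adjusted p = 0.53). In contrast to the 3 leading genes, it was lower in uninduced miR-10b than in uninduced miR-10a samples (-0.14, adjusted p = 0.0059). CRIM1, a membrane protein that binds BMPs, had a mean of 195.8 ± 2.81 CPM in miR-10b controls and 174.3 ± 7.04 CPM in dox samples (SD, n = 3; log2 difference -0.17, adjusted p = 0.0013). Its average over both vectors was -0.09 (adjusted p = 0.027) and lost the call in 7 of the 12 fits that left out 1 replicate. Uninduced, CRIM1 was higher in miR-10b than in miR-10a samples (0.46, adjusted p = 3.6e-12). ARHGEF17 rose with miR-10b from 290.9 ± 5.96 to 324.4 ± 10.6 CPM (SD, n = 3; log2 difference 0.16, adjusted p = 0.0016).

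Of 24 Hippo pathway regulators listed, 17 were tested. With miR-10a 2 were lower, with miR-10b 4 were lower and 1 was higher, and averaged over both vectors 4 were lower and 2 higher, beside 0.742%, 7.15% and 6.22% of all tested genes as lower. As higher, 8.18% of all tested genes passed with miR-10b and 7.67% over both vectors. Their median was 0.02 with miR-10b, the same as over all tested genes to 2 decimals.

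WWC2, a KIBRA family scaffold that promotes LATS activity and the carrier of the 8mer shown above, had 160.4, 163.0 and 168.8 CPM in miR-10b controls and 129.2, 124.9 and 129.9 CPM in dox samples. In miR-10a samples it had 150.9, 146.8 and 156.7 CPM without and 134.9, 136.2 and 137.4 CPM with doxycycline, so every dox sample of either vector was lower than its controls. The log2 difference was -0.36 (SE 0.039, adjusted p = 9.8e-09) with miR-10b and -0.15 (SE 0.039, adjusted p = 0.036) with miR-10a, and the call with miR-10a was lost in 6 of the 12 fits that left out 1 replicate. The difference of its effects between the vectors (-0.21, SE 0.055, adjusted p = 0.039) lost its call in 8 of those 12 fits (values -0.23 to -0.18).

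AMOT, an angiomotin scaffold that binds YAP and here measured on 1 of its transcripts, fell with both vectors. Its log2 difference was -0.25 (SE 0.045, adjusted p = 0.001) with miR-10a and -0.22 (SE 0.048, adjusted p = 0.0013) with miR-10b, with no overlap between dox and control samples of either vector and no seed match in its 3′UTR. Uninduced, AMOT was lower in miR-10b than in miR-10a samples (-0.43, adjusted p = 2.1e-09), the opposite direction to ANKRD1. MOB1A, the co-activator of LATS, fell with miR-10b from 121.4 ± 3.46 to 98.9 ± 5.62 CPM (SD, n = 3; log2 difference -0.30, SE 0.044, adjusted p = 4.8e-06), with a value of -0.06 (adjusted p = 0.64) for miR-10a and a difference of effects (-0.23, adjusted p = 0.036) whose call was lost in 7 of the 12 fits that left out 1 replicate (values -0.26 to -0.19). TAOK3, a kinase upstream of MST, rose with miR-10b (0.22, SE 0.061, adjusted p = 0.01), a call lost without miR-10b dox replicate 2 (0.15) or without miR-10b control replicate 3 (0.16). LIMD1, a relative of AJUBA, was the other regulator lower with miR-10b (-0.23, adjusted p = 0.0012), and the protocadherin DCHS1 the other one higher over both vectors (0.08, adjusted p = 0.018), a call lost with TMM factors, DESeq2 and 5 of the 12 left-out replicates (values from 0.06).

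**Figure D4:**
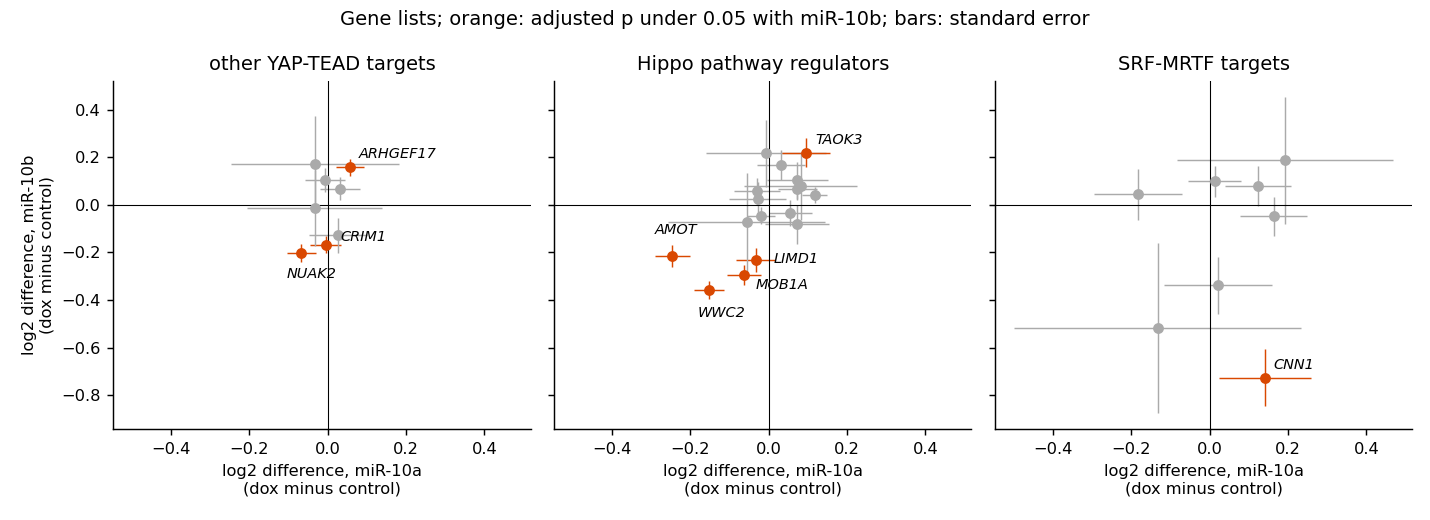
Log2 difference with miR-10a (horizontal axis) against that with miR-10b (vertical axis) for the tested genes of 3 lists, with bars for the standard error; orange points passed an adjusted p of 0.05 with miR-10b, 3 of 8 other YAP-TEAD targets, 5 of 17 Hippo regulators and 1 of 8 SRF-MRTF targets. WWC2 and AMOT lie below 0 on both axes, and CNN1 (0.14 on the horizontal axis) only on the vertical one, at -0.73.

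Genes driven by SRF and its actin-sensing co-factor MRTF respond to many of the same mechanical cues and were counted beside the YAP-TEAD genes. Of 15 listed, 8 were tested. With miR-10b 1 passed, CNN1, as lower (15.3% of all tested genes passed, 7.15% as lower), and with miR-10a 0 passed in edgeR or DESeq2 and 0 had an unadjusted p under 0.05. The medians of the 8 were -0.003 and 0.07. CNN1, the smooth muscle calponin, was singled out after its values were seen. It had 15.89, 12.59 and 13.37 CPM in miR-10b controls and 7.74, 7.21 and 10.23 CPM in dox samples (log2 difference -0.73, SE 0.119, adjusted p = 2.8e-05). With miR-10a its log2 difference was 0.14 (adjusted p = 0.72), and its 3′UTR held 2 of the 7mer-m8 matches. In the uninduced comparison, where 7.41% of all tested genes were higher, 3 of the 8 were higher with miR-10b, namely CNN1 (0.35, adjusted p = 0.026), MYL9 (0.61, adjusted p = 0.00038) and TPM1 (0.29, adjusted p = 0.014). The calls of CNN1 and TPM1 there were each lost without any of 3 single control replicates, and that of CNN1 also with DESeq2. MYL9 and TPM1 were each measured on 1 of several transcripts.

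Most of the tested mesenchymal markers also differed between the uninduced samples of the vectors. The summed level of 10 mesenchymal genes was 193.9 to 203.8 CPM in miR-10a controls, 196.9 to 218.1 in miR-10a dox, 402.3 to 421.5 in miR-10b controls and 340.7 to 366.1 in miR-10b dox samples. Of the 7 tested, 5 were higher and 1 lower in miR-10b than in miR-10a controls (7.41% and 6.72% of all tested genes), while DCN, POSTN and PRRX1 had at most 3 counts in every sample. The lower gene was THY1 (-0.30, edgeR adjusted p = 0.0009), and COL1A2 did not pass (-0.22, adjusted p = 0.5). COL3A1, a fibrillar collagen, had means of 35.1, 39.4, 135.1 and 116.9 CPM in the same order of groups, and was higher in uninduced miR-10b samples by 1.95 on the log2 scale (adjusted p = 1.3e-26). With miR-10b induction 2 of the 7 fell (7.15% of all tested genes), COL1A1 (-0.60, adjusted p = 1e-08) and COL3A1 (-0.21, adjusted p = 0.00038), whereas TWIST1, a mesenchymal transcription factor, did not pass (92.7 ± 4.73 CPM in dox and 93.2 ± 2.76 CPM in control samples, SD, n = 3, log2 difference -0.01, adjusted p = 0.95). With miR-10a induction 0 of the 7 passed in edgeR or DESeq2, and 3 had an unadjusted p under 0.05. Whether mesenchymal cells were present, and their part in the values of ANKRD1, CTGF and CYR61, was not tested.

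Of 10 markers listed for the labelled cell type, midbrain floor plate progenitors, 9 had a mean above 10 counts and were tested. SOX2 and NES, which mark neural progenitors, had group means of 1034 to 1170 CPM and 4454 to 5160 CPM. The floor plate gene CORIN, measured on 1 of 3 transcripts, had means of 7.10, 5.88, 21.8 and 12.8 CPM in miR-10a control, miR-10a dox, miR-10b control and miR-10b dox samples, an order of the miR-10b groups like that of CTGF. CORIN was higher in uninduced miR-10b samples (log2 difference 1.61, adjusted p = 2.3e-15) and fell with miR-10b induction (-0.77, SE 0.090, adjusted p = 6.3e-08), by a smaller value of -0.51 when its transcripts were summed. Of the 9 tested genes of this list, 6 were higher in the uninduced comparison (7.41% of all tested genes) and 2 were lower with miR-10b induction (7.15%), NES being the other (named to complete the count), while with miR-10a 0 passed in edgeR or DESeq2 and 2 had an unadjusted p under 0.05. CORIN did not stand for the whole list. With miR-10b, LMX1A, FOXA2 and EN1 lay above 0 (0.27, 0.21 and 0.05, edgeR adjusted p = 0.22, 0.25 and 0.52). SOX2, SHH, FOXA1 and MSX1 lay below 0 without passing with miR-10b (-0.02, -0.06, -0.03 and -0.22, adjusted p = 0.67, 0.23, 0.63 and 0.054). The median of the 9 with miR-10b was -0.03, beside 0.02 over all tested genes. Averaged over both vectors 3 of the 9 passed, all as lower (6.22% of all tested genes were lower and 7.67% higher). These were CORIN (-0.53, edgeR adjusted p = 1.2e-05), NES (-0.09, adjusted p = 0.00079) and MSX1 (-0.21, adjusted p = 0.01). With miR-10a alone MSX1 was at -0.20 (adjusted p = 0.32). OTX2, with 7 transcripts, had 0.19 to 0.80 CPM and was not tested. The summed level of the 10 floor plate and progenitor genes was 6755 to 6767, 6455 to 6657, 7680 to 7728 and 7009 to 7420 CPM in the same order of groups. Most of this sum came from NES, and the part of the summed level in the result was not tested.

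ANKRD1 is also a heart gene, and markers of muscle were measured beside it. Of 10 cardiac and skeletal muscle genes, TNNT2, NKX2-5, MYOD1 and MYOG had at most 3 counts in every sample. In all marker lists, low counts or sums from genes with several transcripts do not mean low expression. The list summed to 22.5 to 26.3 CPM in the miR-10a samples, 28.4 to 35.2 CPM in the miR-10b controls and 30.5 to 32.3 CPM in the miR-10b dox samples, so that its sum overlapped between dox and control samples with miR-10b. Of the 2 tested, 0 passed with doxycycline in edgeR or DESeq2 and 0 had an unadjusted p under 0.05 there, while ACTC1, a cardiac actin, was higher in uninduced miR-10b than in uninduced miR-10a samples (0.99, adjusted p = 6.8e-10). The 8 epithelial genes summed to 7.55 to 10.3 CPM over all samples, and 0 of the 3 tested passed in any comparison by edgeR or DESeq2 or had an unadjusted p under 0.05.

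**Figure D5:**
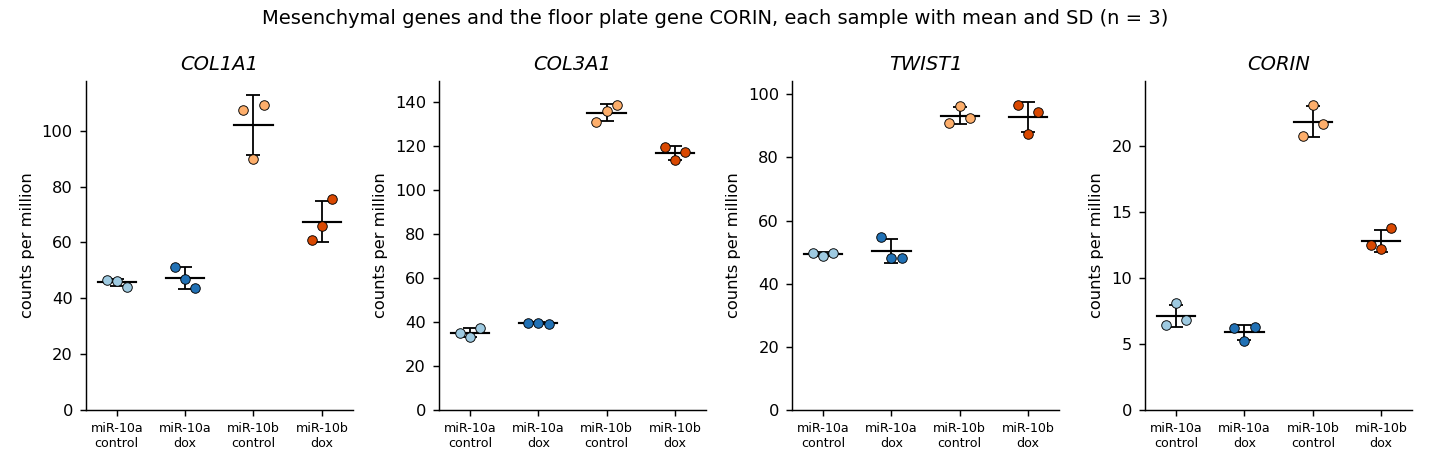
Levels of the mesenchymal genes COL1A1, COL3A1 and TWIST1 and of the floor plate gene CORIN in CPM (vertical axes, from 0) in each of the 12 samples, by group; points are samples, horizontal lines group means and bars the SD of 3 replicates. All 4 genes are higher in the uninduced miR-10b than in the uninduced miR-10a samples, and COL1A1, COL3A1 and CORIN but not TWIST1 are lower in miR-10b dox than in miR-10b control samples. The mesenchymal marker THY1, not shown, was lower in the uninduced miR-10b samples (log2 difference -0.30).

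The genes whose levels followed ANKRD1 most closely were ranked by Pearson's r of log2(CPM + 0.5) over the 12 samples, which fall into 4 groups, as a description. NPPB, the natriuretic peptide B gene, came first (r = 0.971), with group means of 1.82, 1.16, 2.71 and 0.956 CPM in miR-10a control, miR-10a dox, miR-10b control and miR-10b dox samples. It was followed by the glycolytic enzyme PGK1 (r = 0.967), the dynein light chain DNAL4 (0.96), the actin-associated LIM protein PDLIM1 (0.957), the TGF-beta pseudoreceptor BAMBI (0.95), the phosphatase DUSP3 (0.95), WWC2 (0.943) and the mitophagy receptor BNIP3 (0.94). All 8 had their highest group mean in miR-10b control and their lowest in miR-10b dox samples, as ANKRD1 did. Because the 8 were picked by likeness to ANKRD1 over these same samples, this shared order is no separate result. CTGF ranked 602 (r = 0.609) and CYR61 909 (r = 0.533) among all tested genes.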

How the data were processed

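The data were poly-A enriched mRNA sequencing of 12 samples, with no missing group labels. The authors mapped single-end reads to hg19 and deposited, per sample, the counts of reads on each RefSeq transcript without normalization. Per the submitters' processing notes, STAR, Subread and featureCounts were used (versions are not given in the sources used here). For RNA and libraries the methods name RNeasy and NuGEN kits, and the labels miRNeasy and Illumina kits. Each file held 51799 lines for 48101 transcripts, and 3698 repeated lines with equal counts were dropped. Genes with 1 transcript held 92.84% of the counts. Genes with several transcripts held the rest, and a low count for them does not mean low expression.

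Counts were tested in R 4.3.3 with edgeR 4.0.16 (glmQLFit, glmQLFTest), with the total count as library size, 4 group means in 1 fit, genes with a mean above 10 counts, and Benjamini-Hochberg adjustment over all of them. Fold changes were reported as log2 differences with their standard errors, and 95% intervals as 1.96 standard errors. At these depths 3 counts correspond to 0.212 to 0.284 CPM, and such limits cover counting error only. Alternatives were TMM factors, DESeq2 1.42.0, other filters, summed transcripts, each vector alone, the replicate number as a block, and leaving out each replicate. The code was tested on simulated counts. The 10 genes and all lists were chosen with earlier results of these data known. Beside the 10 genes, each list's genes were named if they were among the 4 with the largest average effect over both vectors, with an adjusted p under 0.05 and the same sign with each vector. Genes like ANKRD1 were the 8 with the highest r, and marker lists were given by counts and their defining genes. LIMD1, DCHS1, MYL9 and TPM1 were named to complete small counts, and CNN1 after its values were seen. Seed matches were searched in the longest annotated 3′UTR of each gene (85.8% of the tested genes had one), and other steps used Python 3.11.15.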

Additional observations from a re-analysis of the deposited data

Results flagged for a closer look

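The effect of doxycycline differed between the vectors for 8 tested genes of the lists, ANKRD1 included, all as lower. Beside ANKRD1 these were 2 of 6 members, 2 of 17 Hippo regulators, 1 of 8 SRF-MRTF targets and 2 of 7 mesenchymal markers. None passed among 8 other YAP-TEAD targets, 9 floor plate, 2 muscle and 3 epithelial markers. Over all tested genes 1.96% passed, 1.38% as lower and 0.576% as higher. Each difference below is the log2 effect of inducing miR-10b minus that of inducing miR-10a. For ANKRD1 it was -1.31 (given as a description, since the gene was chosen by its response). For CTGF the difference was -0.43 (adjusted p = 1.6e-06 by the quasi-likelihood test of edgeR, Benjamini-Hochberg adjusted), and for CYR61 it was -0.39 (adjusted p = 0.00066). Both of these genes differed in the uninduced samples as well. Among the Hippo regulators, the difference was -0.21 for WWC2 (adjusted p = 0.039) and -0.23 for MOB1A (adjusted p = 0.036), and these calls were lost in 8 and 7 of the 12 fits that left out 1 replicate. For CNN1, an SRF-MRTF target, it was -0.87 (adjusted p = 0.0019), with log2 effects of 0.14 (miR-10a) and -0.73 (miR-10b). For the mesenchymal markers COL1A1 and COL3A1 it was -0.65 (adjusted p = 9.7e-05) and -0.38 (adjusted p = 0.0018).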

How the results depend on the processing

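The counts of the YAP-TEAD genes past the threshold (0 with miR-10a, 2 with miR-10b, 2 over both vectors, 2 for the difference of effects and 2 in the uninduced comparison, all without ANKRD1) were equal under TMM factors, DESeq2, other filters, summed transcripts, the block and each left-out replicate, and for those comparisons it can make, each vector alone. The replicate numbers are shared across groups, but same-numbered samples did not deviate together (mean r -0.009 over 6 pairs, against 0.005 for 12 other pairs), so the block is given here only. With the replicate number as a block, 1 Hippo regulator passed with miR-10a in place of 2, since WWC2 lost its call (-0.15, adjusted p = 0.064, edgeR), and the differences of effects of WWC2 (adjusted p = 0.058) and MOB1A (adjusted p = 0.052) lost theirs, as did the uninduced difference of WWC2 (adjusted p = 0.051). Also under the block, 2 SRF-MRTF targets passed with miR-10b in place of 1. That second count, in which MYL9 joined CNN1, was also 2 with TMM factors and with a mean above 50 counts. Leaving out 1 replicate gave 1 to 3 Hippo regulators with miR-10a (1 without any of the miR-10a dox replicates, miR-10a control replicate 1 or 3, or miR-10b control replicate 2), 1 to 2 SRF-MRTF targets with miR-10b, and 0 to 1 over both vectors (0 without miR-10a dox replicate 3 or miR-10b control replicate 1). No result changed direction past the threshold. The log2 difference of ANKRD1 ranged from -1.90 to -1.78 with miR-10b and from -0.63 to -0.46 with miR-10a when 1 replicate was left out, that of CTGF with miR-10b from -0.53 to -0.43 and that of CYR61 from -0.41 to -0.27. Over all tested genes, the split of higher to lower calls with miR-10b was 937 to 819, and became 766 to 963 with TMM factors and 498 to 808 with DESeq2. Over both vectors it was 878 to 712, 665 to 852 and 459 to 740. DESeq2 gave no adjusted p for the difference of effects of CNN1. Low counts limit YAP1 most among the 7 tested genes, at 11 to 35 counts on 1 of its 9 transcripts, and AMOTL2, AXL and WWTR1 were not tested.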
